A study of Mus musculus with 4 samples.

Results

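This account follows 10 genes of monocyte and macrophage function, F13a1, Mpeg1, Emb, Samhd1, Lyz1, Lyz2, Cd14, Cd68, Adgre1 and Sirpa, in lymphoid-primed multipotent progenitors (LMPP) of mouse bone marrow. LMPP are early blood-forming cells with both lymphoid and myeloid potential. A gene was included when the RefSeq accession of a non-control array probe mapped to its symbol. That held for 9 of the 10 genes, with 13 probes, among 20276 gene symbols on the array. No probe accession matched Cd68, so no value is given for it. Cd14 had a probe that was too dim for the test, which left 8 genes tested.

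The study compared IRF8-GFP positive LMPP with IRF8-GFP negative LMPP, with 2 arrays per group, labelled exp 1 and exp 2 in each. All cells came from knock-in mice whose green fluorescent protein (GFP) reports IRF8, a transcription factor needed for monocyte and dendritic cell development, so the reporter allele is shared by both groups. The sort took bone marrow cells that lacked lineage markers, the IL-7 receptor and CD150 at the surface and carried Sca-1, CD117, CD34 and CD135. Strain, age, reporter dose and the number of mice behind an array are not given in the sources used here, and nothing says that a group's arrays stem from different mice. The p-values therefore rest on array-to-array spread that may be technical. In sorted populations, a larger share of cells with a transcript and more transcript per cell cannot be told apart.

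Monocytes and macrophages take up and destroy microbes and dying cells, and the genes described here serve different steps of that work. Cd14 and Sirpa encode surface receptors, the first for bacterial lipopolysaccharide and the second for CD47, a signal on healthy cells that restrains uptake. Adgre1 encodes F4/80, an adhesion G protein-coupled receptor used to mark mouse macrophages. Lyz1 and Lyz2 encode lysozymes that cut bacterial cell walls, Mpeg1 encodes perforin-2, a pore-forming protein that acts on engulfed bacteria, and F13a1 encodes the A subunit of coagulation factor XIII, a transglutaminase that cross-links fibrin. Samhd1 encodes an enzyme that breaks down deoxynucleotides and so limits retroviruses. Emb encodes embigin, a membrane glycoprotein that accompanies monocarboxylate transporters. Cd68 encodes macrosialin, a glycoprotein of late endosomes and lysosomes.

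The promoters of the genes that differed most, F13a1 and Mpeg1, and of the lysozyme pair, which did not pass the test, are shown to set the letters before their starts beside the values below. They are the 250 bases before each annotated start in RefSeq's GRCm38.p6 table, read 5′ to 3′ on the gene's strand, which held 7 of the 10 genes (all but Cd14, Adgre1 and Sirpa). Capitals mark every match, on either strand, to 5 motifs. These are GGAAGT (a core of Ets factors such as PU.1), the Ets-IRF composite element, the IRF repeat of the interferon response element, TTGCNNAA (for C/EBP factors) and the TATA box. The composite and the repeat can overlap each other. F13a1 has 2 annotated starts.
F13a1, start 1, chr13:37050245-37050494, minus strand: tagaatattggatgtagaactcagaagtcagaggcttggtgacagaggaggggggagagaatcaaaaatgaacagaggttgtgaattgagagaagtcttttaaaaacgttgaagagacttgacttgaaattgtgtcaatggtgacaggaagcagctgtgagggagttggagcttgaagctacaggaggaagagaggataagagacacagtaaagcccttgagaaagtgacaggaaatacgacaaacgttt
F13a1, start 2, chr13:37049214-37049463, minus strand: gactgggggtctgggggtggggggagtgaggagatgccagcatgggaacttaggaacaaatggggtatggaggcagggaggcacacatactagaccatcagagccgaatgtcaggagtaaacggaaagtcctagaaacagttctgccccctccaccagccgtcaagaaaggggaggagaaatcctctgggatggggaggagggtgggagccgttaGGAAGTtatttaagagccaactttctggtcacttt
Mpeg1, chr19:12460520-12460769, plus strand: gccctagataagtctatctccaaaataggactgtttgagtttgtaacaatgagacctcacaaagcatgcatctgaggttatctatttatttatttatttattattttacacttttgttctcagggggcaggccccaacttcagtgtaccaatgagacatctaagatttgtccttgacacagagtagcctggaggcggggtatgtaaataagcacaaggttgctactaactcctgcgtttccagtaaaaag
Lyz1, chr10:117292869-117293118, minus strand: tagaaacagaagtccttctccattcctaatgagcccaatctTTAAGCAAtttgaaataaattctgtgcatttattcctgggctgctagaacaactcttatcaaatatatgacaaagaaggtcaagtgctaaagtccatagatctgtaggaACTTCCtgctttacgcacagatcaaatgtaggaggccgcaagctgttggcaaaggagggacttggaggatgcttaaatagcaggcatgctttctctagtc
Lyz2, chr10:117282273-117282522, minus strand: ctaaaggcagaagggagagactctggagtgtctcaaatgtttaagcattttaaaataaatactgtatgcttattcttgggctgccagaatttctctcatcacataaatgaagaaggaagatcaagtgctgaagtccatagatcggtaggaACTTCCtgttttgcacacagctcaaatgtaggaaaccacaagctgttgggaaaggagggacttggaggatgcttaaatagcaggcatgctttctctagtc

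GGAAGT lay 35 to 30 bases before the second F13a1 start, and its reverse complement 100 to 95 bases before the starts of both Lyz1 and Lyz2. Of all 32851 promoter windows, 19.7% held this motif. Lyz1 alone of the pair had a match to the C/EBP motif, 209 to 202 bases before its start, a motif found in 9.56% of windows. Among the other members with a window, Samhd1 held TTGCGCAA, 185 to 178 bases before its start, Cd68 held TTGCTAAA, 43 to 36 bases before its start, and Emb held none of the 5 motifs. None of the windows of F13a1, Mpeg1, Emb, Samhd1, Lyz1 and Lyz2 held the Ets-IRF composite element (2.30% of all windows), the IRF repeat (2.98%) or the TATA box, searched as TATAAA (12.4%). Lyz1 and Lyz2 are neighbours in the genome. Their windows were identical at 80.6% of aligned bases, with 200 identical and 48 mismatched bases and 4 gap positions, and the 50 bases just before the start were the same.

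Per array, 29631 and 30266 of 59305 spots were well above background in the positive group, against 33506 and 33681 in the negative group, and no spot was saturated. With 2 arrays a group, precision is limited throughout. The signals below are log2 values relative to the 75th percentile of each array, 1 probe per gene unless stated, and differences are positive minus negative. They were tested over 22362 genes and unnamed transcripts with limma, with a threshold of 0.05 on the adjusted p. The median difference of all of these was 0.16, so small differences are best read against it. It ranged from -0.14 with spike-in scaling to 0.20 with normexp background correction under the 7 other scalings. The share of higher among all calls was 64.3%, against 73.7% with normexp, 52.6% with quantile normalization, 52.4% in the authors' deposited matrix, 46.7% with cyclic loess, 37.7% when scaled on probes above background everywhere and 28.9% with spike-in scaling. Irf8 followed the sort, with 5.13 and 5.22 on the positive arrays, against 1.64 and 1.60 on the negative arrays. Transcripts of the gate's positive markers were above background on all 4 arrays, but not at equal levels: Cd34 (0.26) and Flt3 (0.25) were higher, and Kit (-0.39) and Ly6a, which encodes Sca-1 (-0.96, adjusted p = 0.00222), were lower in the positive group. Il7r, whose protein the gate excluded, was also above background on all 4 arrays and was 5.26-fold higher in the positive group (2.40, adjusted p = 0.000835). Slamf1, the CD150 gene, was above background on no array. With Irf8, whose reporter set the groups, 6 genes of this list were tested, of which 4 rose and 2 fell. These are 66.7% and 33.3%, against 38.5% and 21.4% of all genes.

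Of the 8 tested members, 4 rose in IRF8-GFP positive LMPP (F13a1, Mpeg1, Emb and Adgre1), Samhd1 fell, and Lyz1, Lyz2 and Sirpa did not pass. Over all genes tested, 38.5% rose and 21.4% fell, or 59.9% in all. Of the risers, F13a1 and Mpeg1 passed with at least a 2-fold difference, as did 2.33% of all genes upward and 5.61% downward. The members were spread widely. Their differences ran from -0.38 for Samhd1 to 5.25 for F13a1, with a median of 0.52. F13a1 was the 4th and Mpeg1 the 26th highest difference of the 22362, whereas Emb ranked 722 and Adgre1 772. The groups stood apart without overlap for 7 members, 6 of them higher in positive LMPP and Samhd1 lower, and Lyz2 overlapped. Such separation without overlap was common, at 52.4% of all genes upward and 29.8% downward. The plot of signals by array gives every probe, and the plot of differences places the 8 genes beside the spread of all genes.

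**Figure D1:**
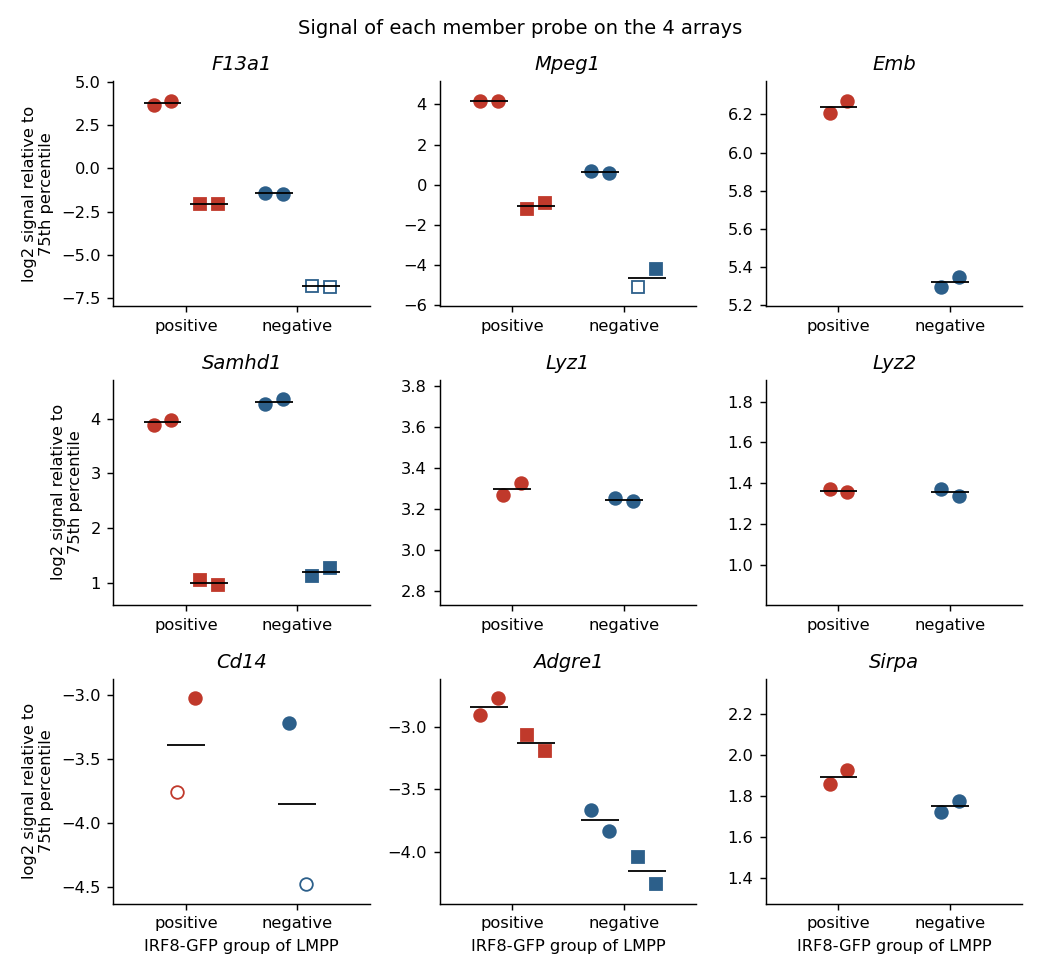
Log2 signal over the 75th percentile of its array (y axis, a separate scale in each panel) for every probe of the 9 genes with a probe, in IRF8-GFP positive (red) and negative (blue) LMPP. Circles are the brightest probe, squares the second, each point is 1 array, bars are means of 2 arrays, and open points were not well above background. The 2 probes of F13a1, Mpeg1 and Adgre1 were each higher in the positive group, and Cd14 was above background on only 1 array per group.

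**Figure D2:**
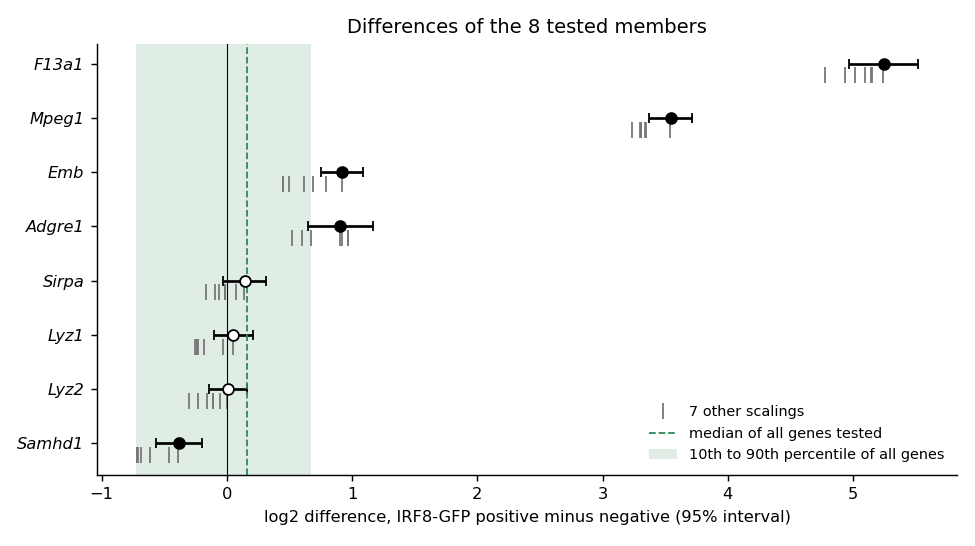
Log2 difference, positive minus negative, of the 8 tested genes (points with 95% intervals from limma, filled where the adjusted p was below 0.05), with the values under 7 other scalings as grey ticks. The dashed line is the median of all genes tested, 0.16, and the band runs from their lower decile, -0.72, to their upper decile, 0.67. F13a1 and Mpeg1 lie far above the band, Emb and Adgre1 above it, and Lyz1, Lyz2 and Sirpa near the median.

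F13a1, the fibrin-crosslinking enzyme, showed the largest change of the set. Its brighter probe read 3.70 and 3.93 on the positive arrays, against -1.40 and -1.47 on the negative arrays. All 4 readings were well above background and the groups lay far apart. The difference was 5.25 (SE 0.10, limma adjusted p = 0.000802), or 37.9-fold. The second probe, to the same transcript accession, gave scanner signals of 77.3 and 101 in the positive group, against 3.98 and 4.72 in the negative group, where it was not well above background. Its change is therefore given only as at least 6.32-fold higher, and since it entered the analysis through the positive arrays alone, no test is given. Across the 20 alternatives the difference of F13a1 lay between 4.78 and 5.36 and passed each time.

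F13a1 is made by megakaryocytes as well as by monocytes. All 7 tested megakaryocyte and platelet markers fell in the positive group, with a median difference of -1.36, and under each of the 7 other scalings too (6 of the 7 without either negative replicate). Their summed signal relative to the 75th percentile was 4.47 to 4.50 in the positive group, against 17.9 to 18.7 in the negative group. Gp1ba, counted among the 7, was above background on no positive array and carries no test. The part of megakaryocytes and platelets in the F13a1 difference was not tested. The transglutaminase relative Tgm2 fell as well, with -2.45 and -2.35 in the positive group, against -0.49 and -0.64 in the negative group, a difference of -1.83 (SE 0.08, adjusted p = 0.00141). Its 2 probes gave -1.83 and -3.02. Of 9 transglutaminase family genes, which here include the factor XIII B subunit F13b and Epb42, 5 could be tested, 0 rose and 2 fell (3 and 1 with normexp background correction), while F13b was above background on no array. Over all genes tested 38.5% rose and 21.4% fell.

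Mpeg1, the pore-forming perforin-2, rose with close replicates. It read 4.19 and 4.15 on the positive arrays, against 0.67 and 0.59 on the negative arrays. The difference was 3.54 (SE 0.06, adjusted p = 0.000802), or 11.7-fold. The second probe gave a difference of 3.59, close to the first, although only 1 of the negative arrays was above background there. Since it entered the analysis through the positive arrays, no test is given. Over the alternatives the gene lay between 3.24 and 3.58. Of its relatives with a membrane-attack pore domain only Prf1, the lymphocyte perforin, could be tested. Prf1 differed by 0.47 (SE 0.12, adjusted p = 0.0326), a call that was lost with spike-in scaling (0.16, adjusted p = 0.409), with percentile scaling on probes above background everywhere (0.24, 0.200), and without positive replicate 1 (0.38, 0.083) or negative replicate 2 (0.35, 0.12). The complement pore genes C6, C8a, C8b and C9 were above background on no array.

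Emb, the transporter companion embigin, was higher by a smaller step. It read 6.21 and 6.27 in positive LMPP, against 5.29 and 5.35 in negative LMPP. The difference of 0.92 (SE 0.06, adjusted p = 0.00191) is 1.89-fold, and it was 0.76 above the median of all genes. It was smaller with quantile normalization (0.45), in the matrix the authors deposited (0.45) and with cyclic loess (0.49), and still passed in each. Its close relatives rose too: Nptn, the neuroplastin gene, by 0.86 (SE 0.07, adjusted p = 0.00233) and Bsg, the basigin gene, by 0.49 (SE 0.05, adjusted p = 0.00384), although Bsg did not pass with spike-in scaling (0.18, adjusted p = 0.0556). The transporter gene Slc16a7 fell by 0.83 (SE 0.12, adjusted p = 0.00775), and Slc16a1 (0.08) and Slc16a3 (0.05) did not pass. In this list of 6 genes, 3 rose and 1 fell (50% and 16.7%, against 38.5% and 21.4% of all genes). Spike-in scaling took its median, 0.29, to -0.02, with 1 riser and 2 that fell.

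Adgre1, the F4/80 gene, was dim but higher in the positive group on both of its probes. The brighter probe read -2.91 and -2.77 on positive arrays, against -3.66 and -3.83 on negative arrays. In scanner units these are signals of 42.4 and 60.6 in the positive group, against 34.7 and 38.1 in the negative group, near the lowest signals called above background, which ran from 17.2 to 25.7 over the arrays. The difference was 0.91 (SE 0.09, adjusted p = 0.00345), or 1.87-fold, and the second probe gave 1.02 (SE 0.10, adjusted p = 0.004 in the fit over probes). It was 0.52 with normexp background correction and still passed. The related receptor gene Adgre5, which encodes CD97, fell, with -0.35 and -0.46 in the positive group, against 0.58 and 0.63 in the negative group, a difference of -1.01 (SE 0.07, adjusted p = 0.00199). Of 8 tested adhesion G protein-coupled receptor genes other than Adgre1, 2 rose and 3 fell (25% and 37.5%, against 38.5% and 21.4% of all genes). These counts were 1 and 6 with spike-in scaling and with percentile scaling on probes above background everywhere, 1 and 5 with quantile normalization, and 1 and 2 without negative replicate 1. Adgrg5 rose by 1.38 (SE 0.06) and Adgrl4 fell by 0.55 (SE 0.06), with adjusted p-values of 0.00141 and 0.00385. The median of the list was -0.14 and stayed below 0 under the 7 other scalings. Adgra2, counted among the 3 that fell, was above background on no positive array.

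Samhd1, the deoxynucleotide-degrading enzyme, was the only tested member that fell. It read 3.89 and 3.97 in positive LMPP, against 4.27 and 4.35 in negative LMPP. The difference was -0.38 (SE 0.07, adjusted p = 0.0121), or 1.30-fold lower, and -0.54 relative to the median of all genes. The call was lost without negative replicate 1 (adjusted p = 0.0543) or negative replicate 2 (0.077). The second probe, designed on another Samhd1 transcript accession, gave -0.20 (SE 0.08, adjusted p = 0.116 in the fit over probes) and did not pass. The direction was the same under all 20 alternatives, from -0.72 with cyclic loess to -0.29 with the mean of both probes.

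Genes of the supply and turnover of deoxynucleotides, the substrates of SAMHD1, mostly moved the other way. Not all serve supply: Dctpp1, Nt5c (0.64) and Nt5c2 (0.16, which did not pass) encode enzymes that degrade nucleotides. Of the 15 genes tested, 10 passed upward, 2 downward and 3 in neither direction. The shares were 66.7% and 13.3%, against 38.5% and 21.4% of all genes, and the median difference was 0.64 against 0.16 for all genes. Under the 7 other scalings 8 to 11 rose, 2 to 3 fell, and the median lay between 0.28 and 0.63. Without either negative replicate 9 rose and 0 fell. The ribonucleotide reductase subunit genes Rrm2 (1.32, SE 0.06) and Rrm1 (1.07, SE 0.06) and the thymidine kinase gene Tk1 (1.05, SE 0.06) rose most, with adjusted p-values of 0.00144, 0.00171 and 0.00177. Dctpp1, which removes unusual deoxynucleotides, rose by 0.98 (SE 0.06, adjusted p = 0.00185). These genes are also known to follow the cell cycle, whose part in these differences was not tested.

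The lysozyme genes had nearly the same signal in both groups. Lyz1 read 3.27 and 3.33 in positive LMPP, against 3.25 and 3.24 in negative LMPP. Lyz2 read 1.37 and 1.36 in positive LMPP, against 1.37 and 1.34 in negative LMPP, where the arrays overlapped. The differences were 0.05 (95% interval -0.10 to 0.21, adjusted p = 0.463) for Lyz1 and 0.01 (-0.14 to 0.16, adjusted p = 0.911) for Lyz2. As scaled here, a 2-fold difference lies outside both intervals, but these rest on array-to-array spread that may be technical. The scaling itself moves the differences: Lyz1 turned to -0.26 (adjusted p = 0.0247) and Lyz2 to -0.30 (0.0239) with spike-in scaling. Relative to the median of all genes the differences were -0.11 and -0.16. The coding sequences of this gene pair are close copies and the probe sequences were not used here, so each probe may also report its neighbour.

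Sirpa and Cd14, the surface receptors, showed no difference that passed. Sirpa read 1.86 and 1.93 in positive LMPP, against 1.72 and 1.78 in negative LMPP. Its difference of 0.14 (95% interval -0.03 to 0.32, adjusted p = 0.112) lay at the median of all genes. It passed with an intensity trend in the variance model (adjusted p = 0.0418), and its sign turned under 5 of the 7 other scalings. Cd14 gave scanner signals of 23.5 and 50.9 in positive LMPP, against 47.0 and 24.3 in negative LMPP. Only the second array of the positive group and the first of the negative group were well above background, so the groups overlapped and no level can be compared. With no filter on dim probes its difference was 0.46 (SE 0.58, adjusted p = 0.549).

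Of the partners of these receptors, some passed in each direction. The SIRPA ligand gene Cd47 rose, with 6.56 and 6.55 in positive LMPP, against 5.83 and 5.87 in negative LMPP, a difference of 0.70 (SE 0.06, adjusted p = 0.00228). The phosphatase genes Ptpn11 (0.40) and Ptpn6 (0.32), whose products bind the SIRPA tail, passed as scaled here. Both calls were lost with quantile normalization (0.0056 for Ptpn11 and -0.033 for Ptpn6). The sign of Ptpn6 also turned with cyclic loess (-0.027) and in the authors' deposited matrix (-0.036). Of the 20 alternatives, Ptpn11 lost its call in 6, and Ptpn6 in 5 besides the 3 where its sign turned. Of the 6 tested genes of the SIRPA list 3 rose and 2 fell (50% and 33.3%, against 38.5% and 21.4% of all genes). The kinase gene Ptk2b was among those that fell (-0.30, adjusted p = 0.0148), and the median of 0.36 turned to -0.01 with quantile normalization. Without negative replicate 1, only Cd47 of this list passed. In the lipopolysaccharide pathway of CD14, Tlr4, the signalling receptor, fell to -1.89 and -2.02 in positive LMPP, against -0.97 and -0.95 in negative LMPP, a difference of -0.99 (SE 0.07, adjusted p = 0.00202). Ly96, its MD-2 partner, fell by 0.58 (SE 0.06, adjusted p = 0.00389) and Tlr6 by 0.50 (SE 0.06, adjusted p = 0.00385). Of 14 tested genes of the pathway 2 rose and 3 fell (14.3% and 21.4%, against 38.5% and 21.4% of all genes). With an intensity trend 6 rose and 3 fell. Spike-in scaling took the list's median, 0.14, to -0.17. Tlr1 was counted as 1 of the risers (1.5), with only 1 negative array above background. It was kept for its positive signal, so its p-value is not given. It did not pass under 10 of the 19 alternatives that tested it.

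Other genes of monocytes and macrophages passed in both directions. Of 9 tested receptor genes, 5 rose and 4 fell (55.6% and 44.4%, against 38.5% and 21.4% of all genes). The 5 include Trem2, which is given only as a bound below, so its share carries that limit. Cx3cr1, the fractalkine receptor (4.48, SE 0.07), Ccr2, a chemokine receptor (3.84, SE 0.13), and Csf1r, the M-CSF receptor (2.74, SE 0.06), rose most. The 3 probes of Csf1r ranged from 0.66 to 2.91. Trem2, a lipid-sensing receptor, was at least 3.07-fold higher, a bound with no test given, since no negative array was above background and it was kept for its positive signal. The 4 that fell were Axl (-1.42), Clec4e (-0.79), Itgam (-0.52) and Marco (-0.30), named after their values were seen. The Itgam probes ranged from -0.52 to 0.54. Itgam did not pass without positive replicate 2 or negative replicate 1, and Marco without either of these or without negative replicate 2. Siglec1, Mertk, Msr1, Mrc1, Cd163 and Timd4, receptors of mature macrophages, were above background on no array. Spike-in scaling took the median of these 9 genes, 0.24, to -0.06.

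Among 12 tested effector product genes 5 rose and 3 fell, shares of 41.7% and 25% that lie near those of all genes, 38.5% and 21.4%. Their median was 0.14, or -0.17 under spike-in scaling. C1qc, counted among the 3 that fell, was above background on no positive array. Fn1, the fibronectin gene (1.53, SE 0.09), Plac8 (1.37, SE 0.06) and Lgals3, the galectin-3 gene (1.11, SE 0.10), rose, with adjusted p-values of 0.00185, 0.00144 and 0.00261. Apoe, the apolipoprotein E gene, fell by 1.08 (SE 0.06, adjusted p = 0.00177). Of 8 transcription factor genes 4 rose and 3 fell, but 2 rose and 2 fell without negative replicate 1, and 1 rose and 4 fell with spike-in scaling, which took the median, 0.09, to -0.21. Zeb2 (1.21, SE 0.06, adjusted p = 0.00145) and Spi1, the PU.1 gene (0.48, SE 0.06, adjusted p = 0.00512), rose, although Spi1 did not pass with spike-in scaling (0.17). Spic, a factor of red-pulp and bone marrow macrophages, fell by 1.83 (SE 0.12, adjusted p = 0.00187), and Maf, a macrophage factor, was at least 1.52-fold lower, likewise a bound, with no positive array above background. Maf is counted among the 3 factors that fell although no test is given for it. In the family of Cd68, Lamp1 (0.65, SE 0.06, adjusted p = 0.00273) and Lamp3 (0.71, SE 0.06, adjusted p = 0.00227) rose and the tetraspanin gene Cd63 fell by 1.11 (SE 0.06, adjusted p = 0.00166). Lamp1 did not pass with quantile normalization (0.16, adjusted p = 0.0729).

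**Figure D3:**
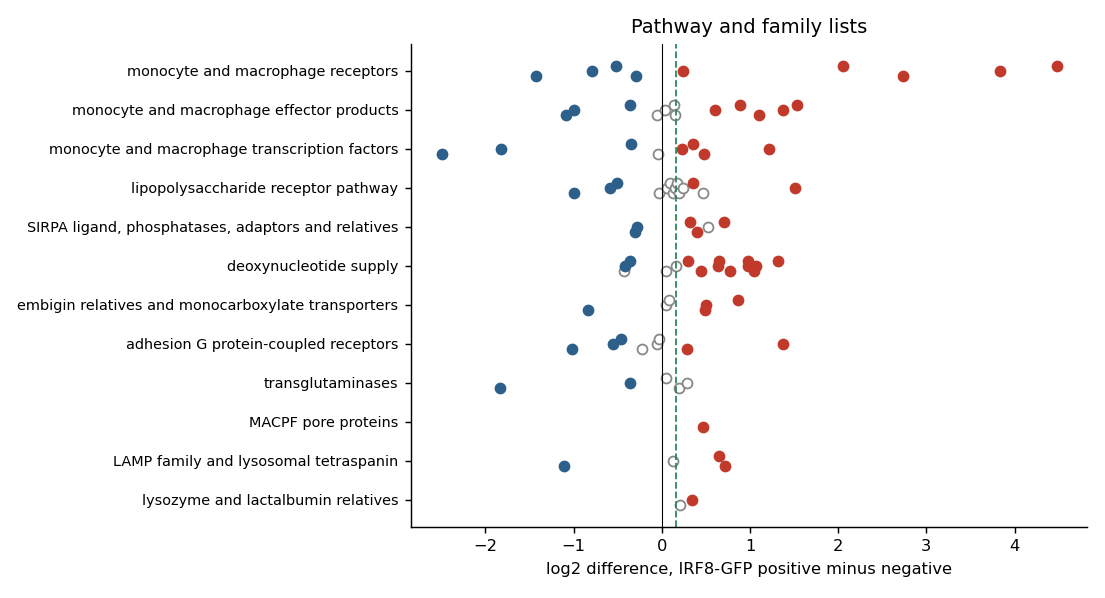
Log2 difference, positive minus negative (x axis), of each tested gene in 12 lists of pathway partners, relatives and other monocyte and macrophage genes (rows). Filled points passed an adjusted p of 0.05 (red higher, blue lower), open points did not, the dashed line is the median of all genes, 0.16, and genes below background in 1 group are drawn at their fitted value. The deoxynucleotide genes lie mostly to the right, with 10 of 15 higher, where 38.5% of all genes rose. The monocyte and macrophage lists lie on both sides.

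Markers of other cells moved as well. The sort took cells without lineage markers and with Sca-1, CD117, CD34 and CD135, and whether mature cells remained was not tested. The counts below stand beside 38.5% of all genes that rose and 21.4% that fell. Of 9 tested markers of mature tissue macrophages 0 rose and 7 fell, with a summed signal of 1.31 to 1.32 in the positive group, against 2.19 to 2.52 in the negative group, and Timd4, Vsig4, Clec4f, Siglec1, Cd163 and Mrc1 were above background on no array. With normexp background correction 4 fell and the median of -0.99 turned to 0.01. C1qc, Cd5l, Slc40a1 and Vcam1 were above background on no positive array and entered through the negative arrays alone. Their falls are counted among the 7 but carry no test. Of 7 tested neutrophil markers 3 rose and 1 fell, with a summed signal of 546 to 619 in the positive group, against 201 to 205 in the negative group, while Ltf, Ngp, Mmp8, Mmp9 and Retnlg were above background on no array. Mpo, the myeloperoxidase gene, which progenitors already express, made up 98.9% to 99.0% of this sum in the positive group and 98.5% to 98.6% in the negative group. Without Mpo the sums were 6.21 to 6.23 in the positive group, against 2.93 to 3.05 in the negative group. The highest of these remaining markers was Elane, the elastase gene. On the log2 scale it read 2.38 and 2.33 in the positive group, against 0.83 and 0.75 in the negative group. The marker that fell was S100a9 (-1.11, limma adjusted p = 0.00186), and S100a8 (-1.16) did not pass. Of 7 conventional dendritic cell markers 6 rose and 0 fell, with a summed signal of 85.6 to 87.5 in the positive group, against 70.0 to 72.9 in the negative group, and Xcr1, Irf4 and Cd209a were above background on no array. Flt3, whose product CD135 the gate selects, made up 90.4% to 91.0% of it in the positive group and 92.4% in both negative arrays. Without Flt3 the sums were 7.91 to 8.26 in the positive group, against 5.35 to 5.52 in the negative group. Of these 3 rose with spike-in scaling, where their median was -0.01 in place of 0.30, and 3 rose without positive replicate 2 or without either negative replicate. Clec9a, counted among the conventional dendritic cell risers, was above background on no negative array. Of 6 plasmacytoid markers 4 rose and 1 fell, with sums of 144 to 165 in the positive group, against 130 to 173 in the negative group, and Klk1 was above background on no array. Only 2 of these rose without negative replicate 1, and under 5 of the 7 other scalings, quantile normalization among them. Siglech made up 63.6% to 70.5% of the plasmacytoid sum in the positive group and 75.2% to 82.2% in the negative group. Without Siglech the sums were 48.6 to 52.2, against 30.9 to 32.1. Of 8 B lineage markers 6 rose and 0 fell, with sums of 17.8 to 18.3 in the positive group, against 12.0 to 12.5 in the negative group, and Ebf1, Igll1 and Ms4a1 were above background on no array. Vpreb3, counted among the 6, was above background on no negative array. Cd79b made up 74.7% to 74.9% of the B lineage sum in the positive group and 85.2% to 86.5% in the negative group. Without Cd79b the sums were 4.50 to 4.59, against 1.70 to 1.77. The part of these cells in the members' differences was not tested.

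Erythroid markers fell in 6 of 7 tested, with sums of 9.16 to 9.69 in the positive group, against 14.2 to 15.7 in the negative group. With normexp background correction 3 fell and 1 rose. Alas2, counted among the 6, was above background on no positive array. Of 6 T, NK and innate lymphoid markers 3 rose and 1 fell, with sums of 40.6 to 41.4 in the positive group, against 35.7 to 36.4 in the negative group, and Cd3g, Cd3d, Tcf7 and Ncr1 were above background on no array. Of these 0 rose with spike-in scaling or without negative replicate 2. Nkg7 made up 90.9% to 92.5% of the lymphoid sum in the positive group and 89.9% to 92.1% in the negative group. Without Nkg7 the sums overlapped, at 3.05 to 3.78 in the positive group, against 2.86 to 3.60 in the negative group. Of 6 mast cell and basophil markers 3 rose and 0 fell (50% and 0%, against 38.5% and 21.4% of all genes). Their sums were 5.59 to 6.42 in the positive group, against 3.93 to 4.13 in the negative group, and Ms4a2 and Cma1 were above background on no array. The plot of markers by cell type shows these lists side by side.

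**Figure D4:**
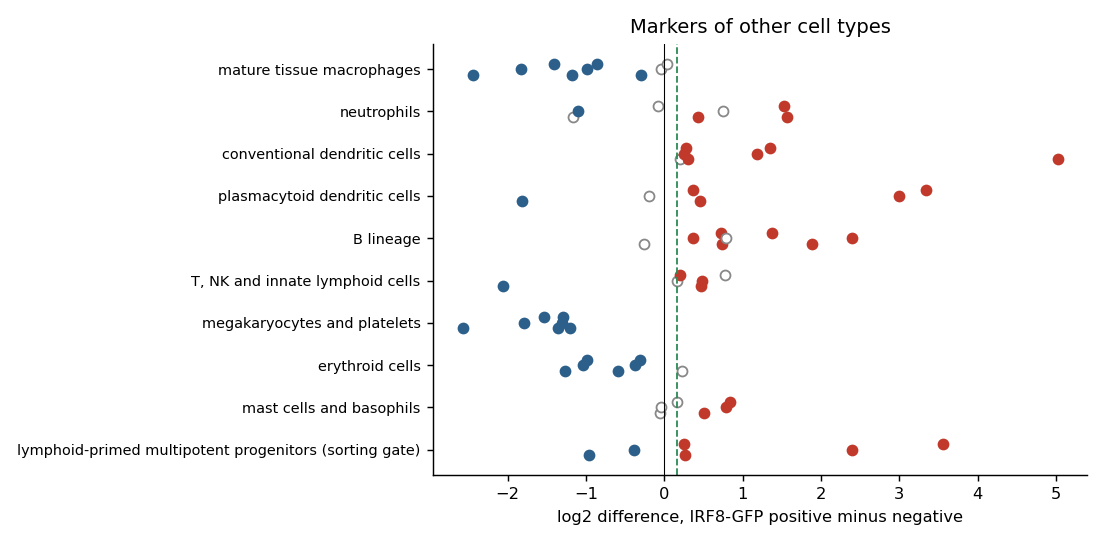
Log2 difference, positive minus negative (x axis), of each tested marker of 9 other cell types and of the sorting gate (rows). Filled points passed an adjusted p of 0.05 (red higher, blue lower), open points did not, the dashed line is the median of all genes, 0.16, and genes below background in 1 group are drawn at their fitted value. All 7 megakaryocyte and platelet markers and 7 of 9 mature macrophage markers lie to the left as filled points, where 21.4% of all genes fell. Of these markers Gp1ba, C1qc, Cd5l, Slc40a1 and Vcam1 were above background on no positive array. Their points are drawn filled but carry no test.

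The genes whose 4 values, centred on their own mean, lay closest to those of a member were found among 12841 other named genes by Euclidean distance. With 4 arrays this measure mostly matches the size of the difference. Of the 4 members that rose, Mpeg1 was closest to Irf8 itself (distance 0.0969), with a difference of 3.55 against 3.54 for Mpeg1, followed by Tmem119 (0.23). The genes closest to F13a1 were above background on no negative array, so no distance is given. Closest to Emb were Timm23 and Ak6 (0.016 each), and closest to Adgre1 were Vax2 (0.025) and Slamf6 (0.052).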

How the data were processed

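RNA of sorted LMPP was hybridized to one-colour Agilent arrays after Cy3 labelling by a low-input kit, per the labels' protocols. Per the file headers, Agilent Feature Extraction 10.7.3.1 read the scans and gives a processed intensity per spot that is background-subtracted but not normalized between arrays, raw median spot and background intensities, and flags. The authors' deposited matrix holds linear intensity values, quantile normalized judging from the values (the same sorted values in all 4 columns, median 31.9 in each). Its centring is not given. The other deposited columns used here are flags that mark spots well above background, saturated or outlying. All 4 arrays lie on 1 slide and share 1 scan day.

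Control and outlier spots were left out (103 to 138 outlier spots per array), and 12 of 55681 probes, with only outlier spots on an array, were dropped. Processed intensities were taken to log2 and each array's 75th percentile was subtracted. Probes well above background on both arrays of at least 1 group were kept (30478). Accessions were matched without version to RefSeq (GRCm38.p6, names and gene order only, since the array design used another build), naming 26750 probes with 1 symbol and 28919 with none. A gene was its brightest kept probe. The groups were compared with limma 3.58.1 in R 4.3.3 (lmFit, eBayes), two-sided, and p-values were adjusted by Benjamini-Hochberg across the 22362 genes. They rest on limma's variance model: the smallest p that exact permutation of 2 and 2 arrays allows is 0.333. Bounds ("at least") set the bright group's mean against, per array of the dim group, the higher of its value and the lowest signal above background. A marker list's summed signal adds the linear signals of each marker's brightest probe, relative to the 75th percentile.

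The members, gene lists, tests and alternatives were chosen with earlier results of these data known. The named genes are all members, up to 4 genes per list with the largest absolute change past the threshold, direct partners fixed by name, Irf8, and the closest profiles. Not every gene this rule takes is printed. The fit was tested on simulated data over 22362 genes with 200 changed: it recovered 92% of 50 genes changed by 2 on the log2 scale, 30% of 50 changed by 1 and 0% of those changed by 0.5 or 0.25, with 4 false calls. The real comparison called 59.9% of genes, which makes the adjusted threshold easier to pass than in the simulation. These shares therefore do not describe the sensitivity of the real comparison, where Vav1 passed at 0.24 (limma adjusted p = 0.0247).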

Additional observations from a re-analysis of the deposited data

How the results depend on the processing

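Each array left out in turn, the replicate number as a block, 7 other scalings, 2 other filters, 2 other variance models, 2 other treatments of a gene's probes and 2 other thresholds made 20 alternatives. F13a1, Mpeg1, Emb and Adgre1 kept their direction and their call under all of them, and the count of members that rose was 4, or 5 with an intensity trend. The count that fell, 1, was 2 with quantile normalization, in the authors' deposited matrix, with cyclic loess and when scaled on probes above background everywhere, 3 with spike-in scaling, 0 at an adjusted p of 0.01, and 0 to 1 with an array left out. All calls, 13390, numbered 7861 at 0.01 and 7612 to 12774 with an array left out (7612 without negative replicate 1, 7723 without negative replicate 2). The genes that fell, members or not, numbered 4779 of 22362 as scaled here and 2859 at 0.01. They numbered 5466 with quantile normalization, 5487 in the authors' deposited matrix and 6060 with cyclic loess. Scaled on probes above background everywhere they numbered 7253, and with spike-in scaling 8099, so the members' count shifted along with that of all genes. With the replicate number as a block the members' counts stayed 4 and 1 and all calls numbered 13946. The labels do not say that the numbers pair the arrays, and deviations of same-numbered arrays correlated at 0.0971 across genes.

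Signs turned as follows. With quantile normalization the differences were -0.23 for Lyz1, -0.11 for Lyz2, -0.016 for Sirpa and -0.033 for Ptpn6. In the deposited matrix they were -0.23 for Lyz1, -0.11 for Lyz2, -0.017 for Sirpa and -0.036 for Ptpn6. With cyclic loess they were -0.24 for Lyz1, -0.16 for Lyz2, -0.059 for Sirpa and -0.027 for Ptpn6. With spike-in scaling they were -0.26 for Lyz1, -0.30 for Lyz2 and -0.16 for Sirpa. Scaled on probes above background everywhere they were -0.18 for Lyz1, -0.23 for Lyz2 and -0.090 for Sirpa. With normexp they were -0.027 for Lyz1, -0.058 for Lyz2 and 0.048 for Marco. Lyz2 ranged from -0.0090 to 0.024 with an array left out (-0.00037 without positive replicate 1), and Itgam was 0.027 with the mean of its probes. The cause was not tested. Background limits the dim probes of Adgre1, Cd14 and the second probes of F13a1 and Mpeg1.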

Other observations

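The genes next to the members on the chromosome were looked up in the RefSeq gene order, and their values were seen before this was written. Ly86, which encodes MD-1, a protein that binds the receptor CD180, is the protein-coding gene next to F13a1 and had the highest difference of all 22362 genes tested. It read 4.41 and 4.40 in positive LMPP, against -1.60 and -1.60 in negative LMPP, a difference of 6.01 (SE 0.05, limma adjusted p = 0.000691). Dtx4, which encodes a ubiquitin ligase of the Deltex family, lies next to Mpeg1 and differed by 2.88 (SE 0.06, adjusted p = 0.000802). Parp8 lies next to Emb and differed by 0.88 (SE 0.06, adjusted p = 0.00212), against 0.92 for Emb.

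Rbl1, which encodes the retinoblastoma relative p107, lies next to Samhd1 and rose by 0.54 (SE 0.08, adjusted p = 0.00677) where Samhd1 fell, although Rbl1 did not pass with spike-in scaling (0.23, adjusted p = 0.0649). Vav1, next to Adgre1, differed by 0.24 (adjusted p = 0.0247), and Eif4a1, next to Cd68, by 0.55 (adjusted p = 0.00335). The other tested neighbours did not pass: Tldc2 (0.16) next to Samhd1, Cpsf6 (0.021) next to Lyz1, Tmco6 (0.079) next to Cd14 and Mpdu1 (0.25) next to Cd68, while Lyz1 and Lyz2 neighbour each other. Over all tested protein-coding genes with a tested adjacent gene, 36 of the 355 that were higher by at least 2-fold (10.1%) had an adjacent gene that was also higher by at least 2-fold. Among the 11286 others the share was 4.40%. The 36 include F13a1, Ly86, Mpeg1 and Dtx4 themselves, and each such pair is counted from both genes. Adjacent genes include gene families and overlapping genes, whose part in this share was not tested.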
